A study of Mus musculus with 17 samples.

Results

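The TGF-beta and Smad signalling genes examined here were 34 named genes among the 54146 genes of the deposited tables. They were taken from a list of ligands, receptors, Smad proteins, regulators, latency proteins and target transcription factors, matched by gene symbol and joined to the counts by Ensembl gene ID. All 34 were found, and all 34 passed the filter on low counts, which kept 19557 genes. The list also holds Ppm1a and Hivep2, whose products are partners of CLIC4 in Smad signalling. None of the 34 passed the edgeR test for a difference between knockout and wild-type lung on either day, or between the days in either genotype.

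TGF-beta ligands are secreted in a latent form, bound to their own propeptide and to latent TGF-beta binding proteins in the matrix, and integrins such as alpha v beta 6 release them. The active ligand joins a type II and a type I receptor kinase, which phosphorylate Smad2 and Smad3. These enter the nucleus with Smad4 and act on target genes, while Smad7, the Smurf ubiquitin ligases, Ski proteins and the phosphatase PPM1A limit the signal. In the lung the pathway is best known for its action on fibroblasts, matrix and epithelial repair. CLIC4 is known to move to the nucleus and to protect phosphorylated Smads from dephosphorylation by PPM1A, which is a step on proteins that RNA levels do not record.

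RNA sequencing was used to compare Clic4 knockout lung (KO) with wild-type lung (WT) on 2 days, in a study of what CLIC4 does in the host during metastasis of mammary tumours. Day 0 had 4 WT and 2 KO libraries from mice of 6 weeks, and day 14 had 6 WT and 5 KO libraries from mice of 8 weeks, so day and age changed together. The strain is labelled FVB/6DT1 in all 4 groups, and 6DT1 names a line of mammary tumour cells from mice. Sample titles call the day 0 libraries of both genotypes Control and the day 14 libraries 14 Days. How the allele was made, in which cells it is lost, and any treatment between the days are not given in the sources used here. Labels do not tie libraries to animals, so p-values measure the spread between these libraries, which may be technical.

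The libraries held 20607811 to 35743830 counts. Clic4 (chr4:135213969-135272814, minus strand, mm10) fell by 1.53 on the log2 scale in KO on day 0 (SE 0.133, edgeR quasi-likelihood test with Benjamini-Hochberg adjustment over all genes, adjusted p = 1.93e-05) and by 1.64 on day 14 (SE 0.0900, adjusted p = 9.95e-09). On day 0 it was 925, 943, 953 and 952 CPM (counts scaled to library size) in WT and 324 and 327.5 CPM in KO. On day 14 WT ran from 927 to 1281 CPM (median 963) and KO was 333, 399, 301.5, 337 and 308 CPM, so every KO library lay below every WT library. Lung markers were present in every library: summed levels were 15660 to 22480 CPM for 5 alveolar type 2 genes, 2428 to 2882 CPM for 4 alveolar type 1 genes and 4257 to 5269 CPM for 6 endothelial genes. On day 14 the alveolar type 1 sum was 2428 to 2482 CPM in KO and 2595 to 2826 CPM in WT. The milk genes Csn2, Csn3 and Wap were at or near 0, and Krt14 was the 1 gene of all marker lists that passed a genotype test (mean of both days, log2 difference 1.32, SE 0.236, edgeR adjusted p = 0.0292), at group means of 0.543 to 1.67 CPM. In whole lung, fewer cells of a type and less RNA per cell cannot be told apart.

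The promoters of 3 members with an unadjusted p under 0.05 and a usable window in the RefSeq table are shown. These members also had the largest day differences in WT lung among those under that p. Tgfb3, Pmepa1 and Lrrc32, under that p for genotype, had no window in the table. Itgb6 encodes the integrin subunit beta 6, Inhba the activin A subunit and Tgfb2 the ligand TGF-beta 2. The sequences are from the RefSeq windows before each gene's start on GRCm38.p6, a C57BL/6J reference and not the FVB strain. The Itgb6 sequence is shortened to 210 bases and ends before the start of the gene in GENCODE, which lies upstream of the RefSeq start at position 60722603. Capitals mark the Smad box CAGAC, or GTCTG where it lies on the other strand, and each sequence runs 5′ to 3′ toward the gene's start.
Tgfb2 (chr1:186705990-186706239, minus strand): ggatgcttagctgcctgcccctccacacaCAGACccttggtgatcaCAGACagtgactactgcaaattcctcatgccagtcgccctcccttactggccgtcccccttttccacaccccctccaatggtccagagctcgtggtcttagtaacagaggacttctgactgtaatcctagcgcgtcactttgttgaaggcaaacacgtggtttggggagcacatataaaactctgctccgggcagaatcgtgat
Itgb6 (chr2:60722644-60722853, minus strand): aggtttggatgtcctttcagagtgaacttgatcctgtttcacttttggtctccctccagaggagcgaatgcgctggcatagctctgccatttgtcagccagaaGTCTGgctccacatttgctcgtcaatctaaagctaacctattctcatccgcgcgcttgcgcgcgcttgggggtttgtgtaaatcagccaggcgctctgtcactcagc
Inhba (chr13:16011601-16011850, plus strand): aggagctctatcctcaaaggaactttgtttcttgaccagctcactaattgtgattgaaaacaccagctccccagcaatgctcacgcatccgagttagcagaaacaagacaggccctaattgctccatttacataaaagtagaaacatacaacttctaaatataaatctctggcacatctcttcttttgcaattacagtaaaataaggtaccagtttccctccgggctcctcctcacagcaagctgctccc

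The Tgfb2 window held 2 Smad boxes, the Itgb6 window 1 and the Inhba window 0. The Tgfb2 window overlaps the gene Gm29491 and the Inhba window the gene B230303A05Rik, each on the opposite strand. Of the 34 members, 23 had a promoter in the RefSeq table, and 10 of these 23 (43.5%) held CAGAC on either strand within 250 bases. The share over all 32851 windows of that length was 42.2%. The palindrome GTCTAGAC was in 0 of the 23 and in 0.167% of all windows. These matches describe letters in a window only.

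Levels between genes were compared as FPKM, the authors' values scaled for transcript length and library size. The matrix protein Ltbp4, which holds latent TGF-beta in elastic fibres, stood first at a median of 282 FPKM over the 17 libraries (range 223 to 320.4). It exceeded Ltbp3 in 17 of 17 libraries, at a median ratio of 8.25 (7.49 to 10.6). No other member overlapped its range. Next came Ppm1a (median 69.8 FPKM), Tgfbr2 (64.6), the Smad co-repressor gene Ski (59.0), Smurf2 (49.4) and Smad7 (44.7), whose ranges overlapped from neighbour to neighbour. At the low end were Bambi (5.07 FPKM), which encodes a pseudoreceptor, Inhba (0.32) and the integrin gene Itgb8 (0.19). Inhba rested on 31 to 75 counts in a library and Itgb8 on 25 to 70.

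Within most families the order of FPKM levels held in 16 or 17 of the 17 libraries. Tgfb1 was above Tgfb3 in 17 of 17 libraries (median ratio 2.60), and Tgfb3 was above Tgfb2 in 16 of 17 (median ratio 1.58). Tgfbr2, the type II receptor, was above the co-receptor Tgfbr3 (median ratio 2.43), and Tgfbr3 above the type I receptor Tgfbr1 (2.12), each in 17 of 17. The inhibitory Smad7 was above the common Smad4, Smad4 above Smad2 and Smad2 above Smad3 in 17 of 17, at median ratios of 1.43, 1.78 and 1.38. Ltbp3 lay just above Ltbp1 (median ratio 1.13, 16 of 17). The order was not stable for Snai2 and Snai1 (Snai2 higher in 10 of 17, ratio 0.675 to 2.00) or for Itgav and Itgb6 (Itgav higher in 12 of 17, ratio 0.602 to 2.43). Zeb1 was above Zeb2 and Smurf2 above Smurf1 in 17 of 17.

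**Figure D1:**
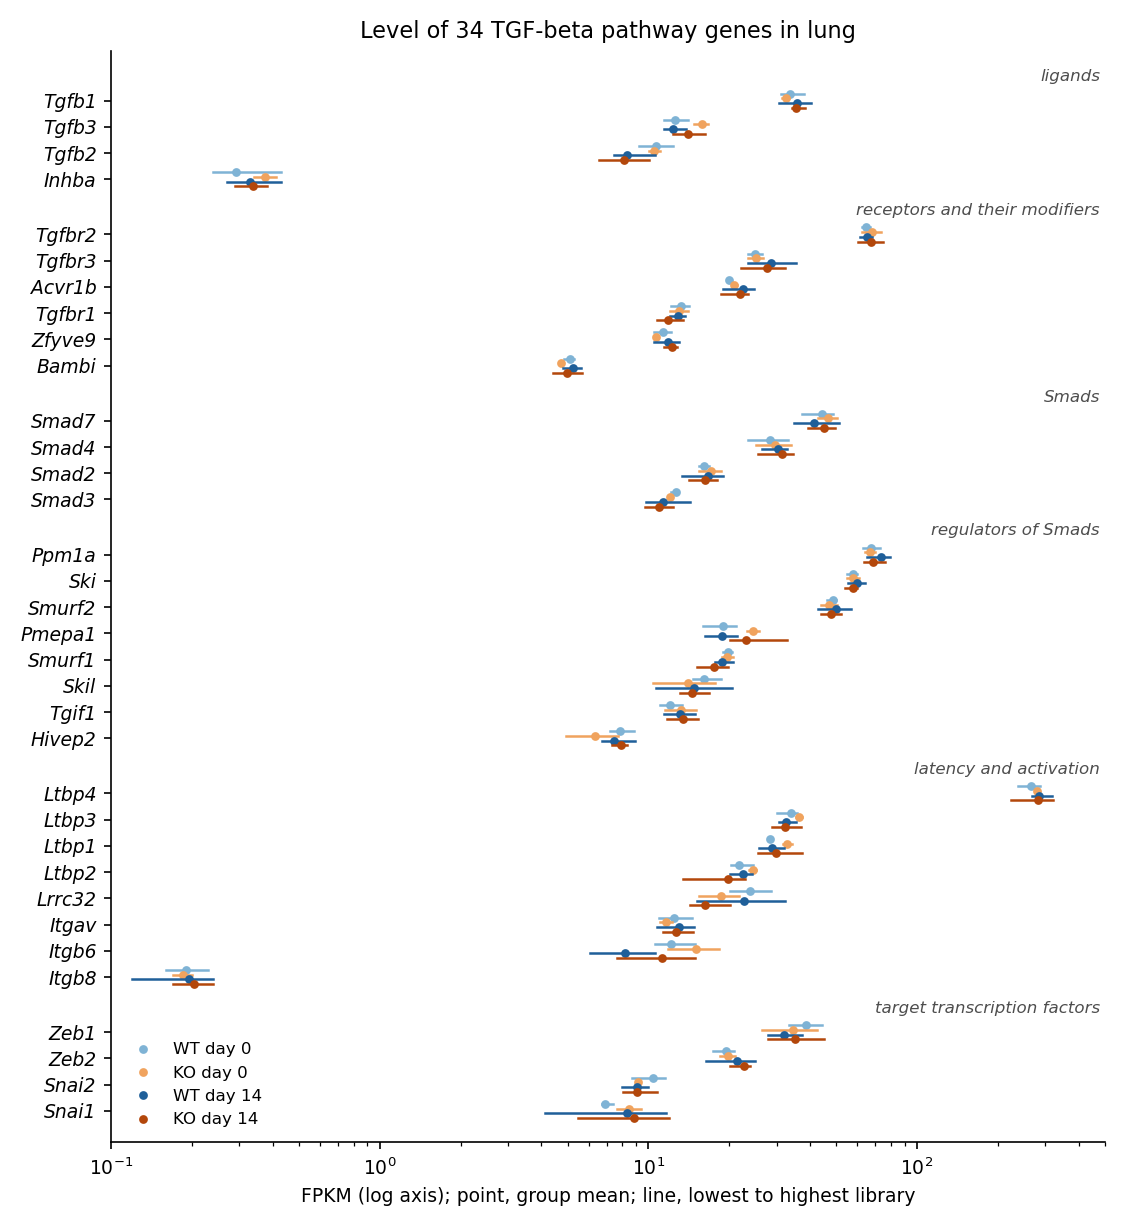
FPKM of the 34 members on a log axis, grouped by role and coloured by genotype and day. Points are group means, and lines run from the lowest to the highest library of a group. Ltbp4 stands alone at the top (median over the 17 libraries 282 FPKM). Inhba and Itgb8 lie lowest (medians 0.32 and 0.19 FPKM), and the 4 groups overlap for most genes.

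The knockout comparison asked whether RNA of the pathway differed in lungs labelled Clic4 knockout. Clic4 RNA in them was at 34.55% of WT on day 0 and 32.2% on day 14, so the comparison is with lowered and not absent Clic4 RNA. These counts are per gene, and whether the RNA left is a whole transcript was not tested. On day 0, 0 of 34 members passed the edgeR test, beside 0.0256% of all genes tested (5 genes, Clic4 among them). On day 14, 0 of 34 passed, beside 0.107% (21 genes), and for the mean of both days, which shares its libraries with the single days, 0 of 34, beside 0.102% (20 genes). At an unadjusted p under 0.05 the counts were 3, 3 and 4 members (8.82, 8.82 and 11.8%), beside 6.74, 8.95 and 10.1% of all genes. DESeq2 called 0 members on day 0, beside 0.133% of all genes, 0 on day 14, beside 0.557%, and 1, Tgfb3, for the mean of both days (2.94%), beside 0.798%. The median log2 difference of the members was 0.01 on day 0 and -0.02 on day 14, and the median over all genes was 0.00 on both. The median size of the log2 difference was 0.085 on day 0 and 0.063 on day 14, against 0.122 and 0.091 over all genes, which is a description with no test. All genes tested were not matched to the members in level, so the smaller size is not read as a trait of the pathway.

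Intervals gave the range of differences that the libraries allow. On day 14 the 95% interval lay within 0.5 log2 units either way (1.41-fold) for 31 of 34 members, the exceptions being Itgb6, Lrrc32 and Snai1, and within 2-fold for all 34. On day 0, with 2 KO libraries, it lay within 1.41-fold for 25 of 34 and within 2-fold for 32, the exceptions being Inhba and Snai1. On day 0, both KO libraries were above all 4 WT libraries for 7 members (Acvr1b, Ltbp1, Tgfb3, Ltbp3, Pmepa1, Inhba and Snai1), or 20.6%, beside 8.88% of all genes, and below them for Bambi alone, or 2.94%, beside 9.12%. On day 14 the genotypes overlapped for every member, beside 0.583% of all genes apart with KO higher and 0.394% with KO lower.

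**Figure D2:**
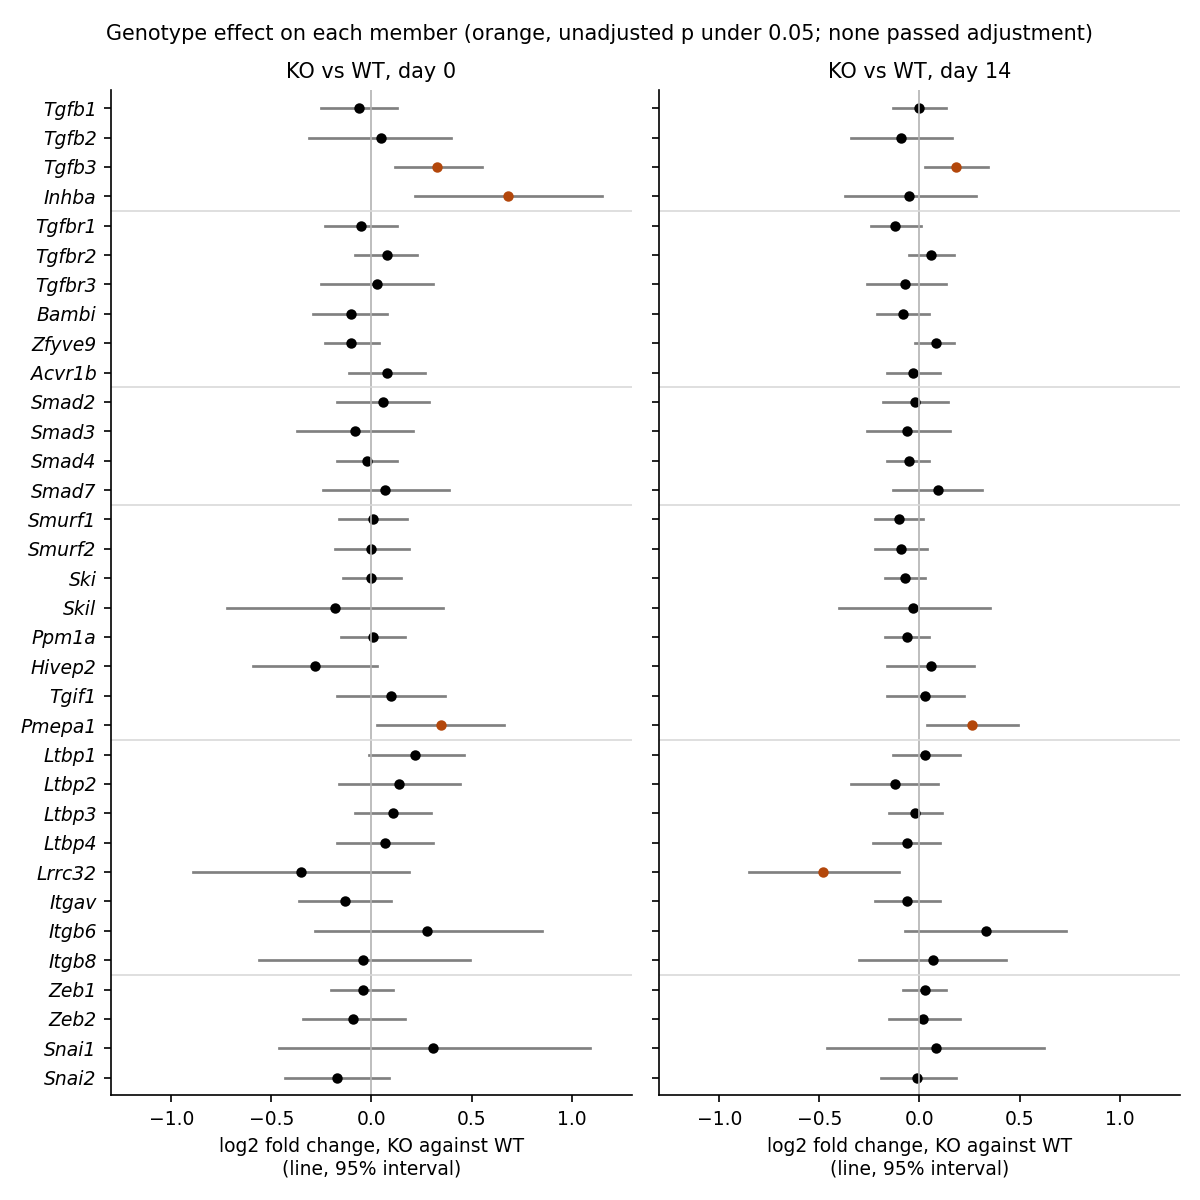
Log2 difference KO minus WT (points) with its 95% interval (lines) for the 34 members, grouped by role, on day 0 and day 14 from the edgeR fit. On day 14 the intervals of 31 members lie within 0.5 log2 units either way, and the intervals on day 0 are wider.

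Among the ligands, Tgfb3 had the smallest p of all 34 members for the mean of both days. Tgfb3 (chr12:86056745-86079041, minus strand) encodes TGF-beta 3, which is needed for lung maturation and palate fusion. On day 0 it was 36.6, 44.8, 41.0 and 38.1 CPM in WT libraries 1 to 4 and 53.0 and 48.2 CPM in the 2 KO libraries. Both KO libraries were above every WT library, by a log2 difference of 0.33 (SE 0.104, 95% interval 0.12 to 0.55, edgeR adjusted p = 0.619). On day 14 the WT libraries ran from 37.4 to 44.9 CPM (median 38.6), and the 5 KO libraries were 46.7, 52.9, 40.8, 44.2 and 40.3 CPM. The groups overlapped through WT library 3, the highest of WT, and the log2 difference was 0.18 (SE 0.0734, interval 0.03 to 0.34, edgeR adjusted p = 0.470).

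For the mean of both days Tgfb3 was at 120% of WT (119.6%, log2 difference 0.26, SE 0.0635, interval 0.13 to 0.39, unadjusted p = 0.000707). The edgeR adjusted p was 0.163, and the DESeq2 adjusted p was 0.0342, the 1 call of a member in any setting tried. KO library 2 of day 14, the highest of its group for Tgfb3, also had the highest summed level of 8 fibroblast markers in the series (3448 CPM, against 2215 to 2484 CPM in the other KO libraries and 2224 to 2792 CPM in WT of that day). On day 0 the fibroblast sum was 3179 and 3363 CPM in KO and 2459 to 3143 CPM in WT, with 0 of the 8 markers passing the test and none at 0. Within the groups of day 0 the order differed. WT library 1 had the highest fibroblast sum of WT (3143 CPM) and the lowest Tgfb3 (36.6 CPM). KO library 1 had the lower sum (3179 CPM) and the higher Tgfb3 (53.0 CPM). Without KO library 2 of day 14 the day 14 difference of Tgfb3 was 0.12 (edgeR adjusted p = 0.661). The part of these cells in the Tgfb3 values was not tested.

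Inhba (chr13:16011851-16031621, plus strand) encodes the inhibin beta A chain, which pairs to form activin A and signals through Smad2 and Smad3. On day 0 it was 1.19, 1.49, 1.46 and 1.43 CPM in WT and 1.87 and 2.61 CPM in KO, from 40 to 70 counts a library. On this scale the KO libraries were above every WT library, with a log2 difference of 0.68 (SE 0.221, interval 0.22 to 1.15, edgeR adjusted p = 0.619), and 0.43 without KO library 2. In the authors' FPKM the groups of day 0 overlapped, at 0.24 to 0.43 in WT and 0.34 and 0.41 in KO. Group means were 0.2925 FPKM in WT and 0.375 FPKM in KO. The difference of Inhba on the log2(FPKM + 1) scale without a filter was 0.09. The added 1 exceeds these FPKM values and shrinks any difference, so 0.09 cannot be set against the difference in CPM. On day 14 WT ran from 1.58 to 2.49 CPM (median 1.84) and KO was 1.93, 2.12, 1.82, 2.09 and 1.53 CPM. The groups lay on top of each other, at a log2 difference of -0.05 (SE 0.156, interval -0.37 to 0.28).

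Tgfb1, the main ligand of immune and stromal cells, was 65.3 ± 5.72 CPM (SD, n = 4) in WT and 62.6 ± 2.89 CPM (n = 2) in KO on day 0, and 69.4 ± 5.89 CPM (n = 6) and 69.4 ± 2.71 CPM (n = 5) on day 14. Its log2 difference on day 14 was 0.00 (interval -0.13 to 0.13), the member nearest to 0. Tgfb2 differed by 0.05 on day 0 (interval -0.31 to 0.40) and -0.09 on day 14 (interval -0.34 to 0.16).

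None of the 6 receptor genes and receptor modifiers reached an unadjusted p under 0.05 for genotype on either day. Tgfbr2 was 341 ± 6.31 CPM (SD, n = 4) in WT and 360.1 ± 35.2 CPM (n = 2) in KO on day 0, and 351 ± 14.2 CPM (n = 6) and 367 ± 26.6 CPM (n = 5) on day 14. Tgfbr1, which lies on chromosome 4 at 87.8 Mb from Clic4, had a log2 difference of -0.12 on day 14 (SE 0.0603, interval -0.24 to 0.01, edgeR adjusted p = 0.590), with group means of 69.5 CPM in WT and 64.1 CPM in KO. The co-receptor Tgfbr3, the activin type I receptor Acvr1b, the pseudoreceptor Bambi and Zfyve9, which encodes the Smad anchor SARA, had log2 differences between -0.10 and 0.08 on day 0 and between -0.08 and 0.08 on day 14. Zfyve9 also lies on chromosome 4, at 26.4 Mb from Clic4. Bambi was the member that lay below WT in both KO libraries on day 0, at 22.6 and 23.5 CPM against 25.6, 23.7, 25.5 and 24.4 CPM.

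The Smad genes carry the signal to the nucleus, and their RNA lay close between the genotypes. Smad2, Smad3, Smad4 and Smad7 had log2 differences from -0.08 to 0.07 on day 0 and from -0.06 to 0.09 on day 14, and no unadjusted p under 0.05. Smad4 was 86.3 ± 3.69 CPM (SD, n = 6) in WT and 83.2 ± 2.42 CPM (n = 5) in KO on day 14, with an interval of -0.16 to 0.05. Smad3, which binds the Smad box, was 55.8 ± 9.26 and 53.6 ± 6.60 CPM, with an interval of -0.26 to 0.15. Smad7, itself a target of the pathway that blocks the type I receptor, was 92.8 ± 14.95 and 98.6 ± 10.02 CPM, with an interval of -0.13 to 0.31.

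The 2 partners of CLIC4 in Smad signalling were given for every library. Ppm1a, the Smad phosphatase, was 104, 111, 109.6 and 115 CPM in WT and 105 and 116 CPM in KO on day 0. On day 14 it ran from 107 to 128 CPM in WT (median 123) and was 109, 114, 113, 129.5 and 114 CPM in KO. The genotypes overlapped on both days, with log2 differences of 0.01 (interval -0.15 to 0.17) and -0.06 (interval -0.17 to 0.05). Hivep2, which encodes the zinc finger protein Schnurri-2, was 82.1, 68.7, 72.5 and 70.8 CPM in WT and 46.4 and 74.97 CPM in KO on day 0. KO library 1 lay below all 4 WT libraries and KO library 2 within their range, and the log2 difference of -0.28 (SE 0.146, interval -0.59 to 0.03) was 0.03 without KO library 1 and -0.67 without KO library 2. On day 14 Hivep2 ran from 64.1 to 84.1 CPM in WT (median 66.2) and was 76.2, 70.6, 74.2, 78.1 and 69.6 CPM in KO, at a log2 difference of 0.06 (interval -0.16 to 0.27).

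Pmepa1 (chr2:173224458-173276533, minus strand) encodes a membrane protein that is induced by TGF-beta and sequesters Smad2 and Smad3 in a feedback loop. On day 0 it was 61.2, 65.1, 61.4 and 50.3 CPM in WT and 74.5 and 77.0 CPM in KO. Both KO libraries were above every WT library, at a log2 difference of 0.35 (SE 0.150, interval 0.03 to 0.66, edgeR adjusted p = 0.724). On day 14 WT ran from 53.4 to 66.6 CPM (median 62.8) and KO was 67.5, 100.3, 62.9, 62.9 and 77.1 CPM. Of the 5 KO libraries 3 were above all WT libraries, and the log2 difference was 0.26 (SE 0.106, interval 0.04 to 0.49, edgeR adjusted p = 0.472). Without KO library 2, the one with the highest fibroblast and mesothelial sums, the day 14 difference was 0.13 (edgeR adjusted p = 0.675). KO library 5, at 77.1 CPM of Pmepa1, had a fibroblast sum of 2428 CPM and the lowest mesothelial sum of its group (205.1 CPM). The part of fibroblasts and mesothelial cells in the Pmepa1 values was not tested. For the mean of both days the log2 difference of Pmepa1 was 0.31 (SE 0.0916, edgeR adjusted p = 0.254).

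The other regulators of Smads differed little. Ski, Smurf1, Smurf2, Skil and the repressor gene Tgif1 had log2 differences from -0.18 (Skil) to 0.10 (Tgif1) on day 0 and from -0.10 (Smurf1) to 0.03 (Tgif1) on day 14. Skil, a feedback target, was at 65.9 and 114 CPM in the 2 KO libraries of day 0, and its interval of -0.72 to 0.36 was wide. Ski lies on chromosome 4 at 19.9 Mb from Clic4 and was 282 ± 11.8 CPM (SD, n = 4) in WT and 283 ± 20.04 CPM (n = 2) in KO on day 0.

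Among the latency and activation genes, Lrrc32 (chr7:98489283-98502181, plus strand) had the lowest values in KO relative to WT. It encodes GARP, which holds latent TGF-beta on the surface of regulatory T cells, platelets and endothelium. On day 0 it was 97.3, 106, 75.01 and 73.8 CPM in WT and 56.6 and 81.9 CPM in KO, which overlapped (log2 difference -0.35, SE 0.252, interval -0.89 to 0.19). On day 14 WT ran from 55.1 to 121 CPM (median 81.3) and KO was 73.9, 56.7, 52.3, 59.7 and 56.5 CPM. WT libraries 4 and 6 lay within the KO range, and the log2 difference was -0.48 (SE 0.176, interval -0.85 to -0.10, edgeR adjusted p = 0.431). The mean of both days gave -0.41 (SE 0.154, edgeR adjusted p = 0.388).

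The highest Lrrc32 value was that of WT library 3 of day 14, which also had the highest summed level of 5 NK markers (157 CPM) and of 5 T cell markers (89.3 CPM) in the series. Its endothelial sum (4881 CPM) was below that of library 5 (4915 CPM). Among the WT libraries of day 0, library 2 had the highest Lrrc32, the lowest NK sum (70.7 CPM) and the highest endothelial sum (5269 CPM). Library 4 had the lowest Lrrc32, the highest NK sum (144.7 CPM) and the lowest endothelial sum (4712 CPM). On day 0 both KO libraries lay below all 4 WT libraries in the T cell sum (46.9 and 55.6 against 56.5 to 83.2 CPM), the NK sum (26.9 and 58.2 against 70.7 to 144.7 CPM) and the endothelial sum (4627 and 4698 against 4712 to 5269 CPM), and within WT in the sum of 4 platelet markers (40.7 and 41.5 against 31.4 to 67.6 CPM). The T cell sum on day 14 was 52.2 to 89.3 CPM in WT and 41.7 to 80.3 CPM in KO, the NK sum 51.8 to 157 and 42.1 to 63.0 CPM, the endothelial sum 4342 to 4915 and 4257 to 4607 CPM, and the platelet sum 48.5 to 77.1 and 47.5 to 90.6 CPM. No marker of these lists passed the test and none was at 0. Without WT library 3 the day 14 difference of Lrrc32 was -0.34. The part of these cells in it was not tested.

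Itgb6, an epithelial integrin subunit that activates latent TGF-beta, was 59.5, 46.5, 44.7 and 52.3 CPM in WT and 69.2 and 54.2 CPM in KO on day 0. On day 14 it ran from 26.9 to 48.3 CPM in WT (median 33.3) and was 32.8, 57.2, 40.6, 30.6 and 57.3 CPM in KO. The genotypes overlapped on both days, with log2 differences of 0.28 (interval -0.28 to 0.85) and 0.33 (interval -0.07 to 0.73, edgeR adjusted p = 0.650). Its partner Itgav differed by -0.13 and -0.06, and Itgb8 by -0.04 and 0.07. The binding proteins Ltbp1, Ltbp2, Ltbp3 and Ltbp4 had log2 differences of 0.22, 0.14, 0.11 and 0.07 on day 0 and 0.03, -0.12, -0.02 and -0.06 on day 14. Ltbp1 was 140 ± 2.12 CPM (SD, n = 4) in WT and 164 ± 13.1 CPM (n = 2) in KO on day 0, with an edgeR adjusted p of 0.747.

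The target transcription factors Zeb1, Zeb2, Snai1 and Snai2 repress epithelial genes in the epithelial to mesenchymal transition. None had an unadjusted p under 0.05 for genotype. On day 14 their log2 differences were 0.03, 0.02, 0.08 and -0.01, with the interval of Zeb1 at -0.08 to 0.13 and that of Snai1 at -0.46 to 0.62. Snai1 was the member with the greatest scatter, at 6.08 to 16.5 CPM in WT (median 12.6) and 8.44, 14.5, 15.4, 17.01 and 8.01 CPM in KO on day 14.

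**Figure D3:**
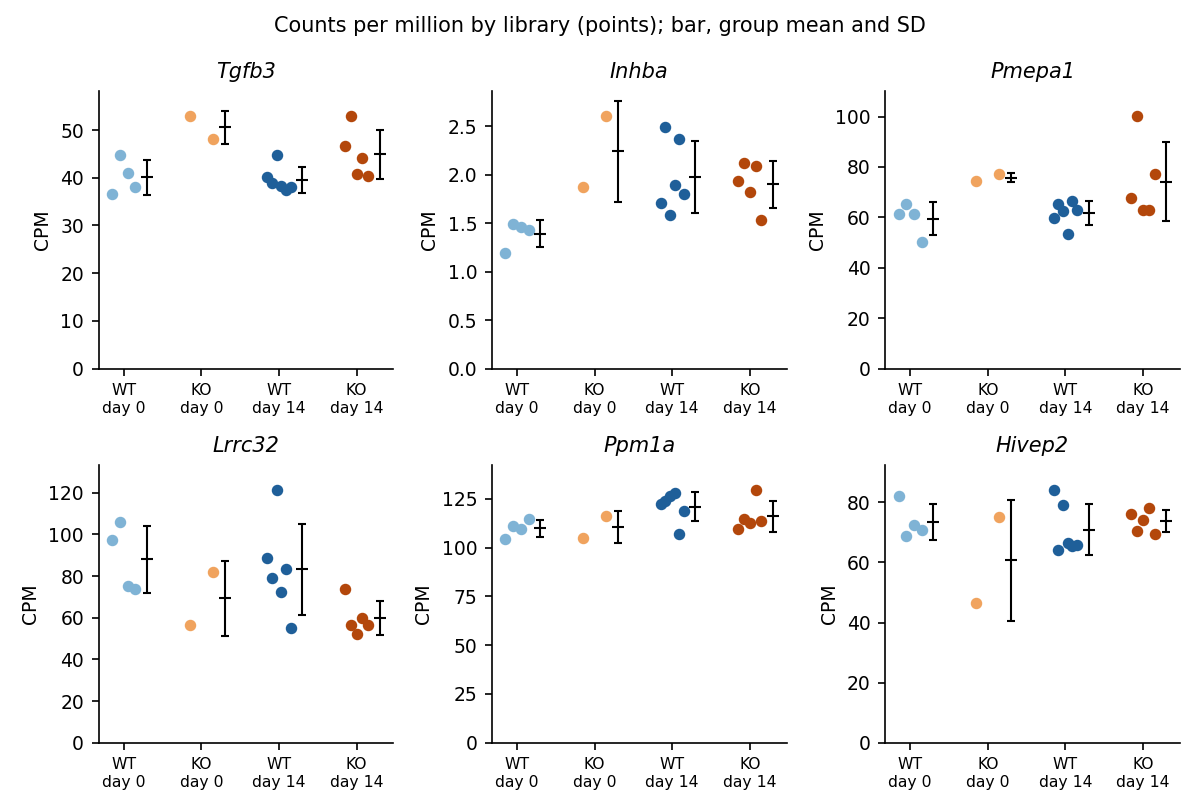
CPM of Tgfb3, Inhba, Pmepa1, Lrrc32, Ppm1a and Hivep2 by library (points), with the group mean and SD (bars). Tgfb3, Inhba and Pmepa1 lie higher in both KO libraries than in all 4 WT libraries on day 0, and every gene overlaps between genotypes on day 14.

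Further genes of the pathway gave the same count. Of 38 other genes of TGF-beta and activin signalling, 35 passed the filter and 0 passed the test in any of the genotype comparisons. The shares over all genes were 0.0256% on day 0, 0.107% on day 14 and 0.102% for the mean of both days. At an unadjusted edgeR p under 0.05 there were 4, 4 and 5 of the 35. These were 11.4, 11.4 and 14.3%, beside 6.74, 8.95 and 10.1% of all genes. The median log2 difference of the 35 was 0.00 on day 0 and -0.03 on day 14. The largest difference was that of Acvr1c, the activin receptor ALK7, on day 0 (1.89, SE 0.579, edgeR adjusted p = 0.619), and it was 0.01 (SE 0.387) on day 14. The sum of 6 adipose markers was 48.35 and 122.9 CPM in KO and 31.38 to 43.35 CPM in WT on day 0. On day 14 it was 38.51 to 91.43 CPM in KO and 41.64 to 93.95 CPM in WT. The part of adipose tissue in the Acvr1c difference was not tested. Acvr2a, an activin type II receptor, had log2 differences of -0.21 (SE 0.0836) and -0.17 (SE 0.0582), and Nrros, which holds latent TGF-beta on macrophages, -0.30 (SE 0.105) and -0.18 (SE 0.0722). The matrix protease gene Mmp14 had 0.26 (SE 0.104) and 0.19 (SE 0.0733). For the mean of both days the edgeR adjusted p was 0.195, 0.187 and 0.212 for Acvr2a, Nrros and Mmp14.

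Of 28 target genes outside the members, all 28 passed the filter. In each genotype comparison 0 passed the test, beside 0.0256, 0.107 and 0.102% of all genes on day 0, on day 14 and for the mean of both days. At an unadjusted edgeR p under 0.05 there were 3, 3 and 5 of the 28. These were 10.7, 10.7 and 17.9%, beside 6.74, 8.95 and 10.1% of all genes. On day 0, 19 of the 28 were higher in KO and 9 lower, with a median log2 difference of 0.19 against 0.00 over all genes. On day 14, 10 were higher and 18 lower, with a median of -0.04. The elastin gene Eln had differences of 0.77 (SE 0.208, edgeR adjusted p = 0.581) and 0.28 on the 2 days, and Acta2, smooth muscle actin, 0.34 (SE 0.128) and 0.26 (SE 0.0905). Ccn2, which encodes connective tissue growth factor, had -0.13 and -0.41 (SE 0.125, edgeR adjusted p = 0.348), and Il11 had 0.50 and -1.13 (SE 0.263, edgeR adjusted p = 0.130). The sum of 4 smooth muscle markers, Acta2, Cnn1 and Tagln among them, was 685 and 694 CPM in KO and 513 to 643 CPM in WT on day 0, and 553 to 737.6 against 494 to 640.5 CPM on day 14. The part of these cells in the target genes was not tested.

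The second question was how the members stood on day 14 against day 0. In WT, 0 of 34 members passed the edgeR test, beside 0% of all genes tested, and in KO 0 of 34, beside 0%. DESeq2 called 0 members in WT, beside 0.562% of all genes (110 genes), and 0 in KO, beside 0.496% (97 genes). At an unadjusted p under 0.05 there were 6 members in WT (17.6%), beside 9.06% of all genes, and 3 in KO (8.82%), beside 9.05%. The median log2 difference of the members was 0.04 in WT and -0.01 in KO, and over all genes 0.00 and 0.01. These comparisons share no libraries, and each has the change of age from 6 to 8 weeks within it.

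Tgfb2 (chr1:186622792-186705989, minus strand) was the member with an unadjusted p under 0.05 in both genotypes. It was 47.4, 45.8, 41.7 and 47.3 CPM in WT on day 0 and 33.0 to 50.3 CPM (median 36.0) in WT on day 14. Of the 6 WT libraries of day 14, 5 lay below every day 0 library, and library 5 lay above them all. The log2 difference was -0.27 (SE 0.126, interval -0.54 to -0.01, edgeR adjusted p = 0.540), and -0.37 (adjusted p = 0.163) without that library. In KO it was 44.3 and 49.7 CPM on day 0 and 36.4, 47.2, 34.2, 28.3 and 31.0 CPM on day 14. Library 2 lay between the day 0 libraries and the other 4 below them, at a log2 difference of -0.41 (SE 0.162, interval -0.75 to -0.07, edgeR adjusted p = 0.456), and -0.54 without library 2. The high libraries of day 14 were those with the highest mesothelial sums of their groups, 284 CPM in WT and 335 CPM in KO, against 205 to 225 and 205 to 275 CPM in the others, with 0 of the 3 mesothelial markers passing the test. On day 0 the highest mesothelial sums were in WT library 2 (282.5 CPM) and KO library 1 (287.2 against 248.5 CPM). Neither of these had the highest Tgfb2 of its group. The part of these cells was not tested.

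Itgb6 (chr2:60598292-60722643, minus strand) lay lower on day 14 in the values given above. In WT 5 of the 6 day 14 libraries were below all 4 day 0 libraries, with library 5 between them, at a log2 difference of -0.55 (SE 0.198, interval -0.97 to -0.13, edgeR adjusted p = 0.406). In KO the difference was -0.50 (SE 0.253, interval -1.04 to 0.04, edgeR adjusted p = 0.579) and the days overlapped. Inhba in WT lay higher in every day 14 library than in every day 0 library, the only member apart between the days in WT (2.94%, beside 1.2% of all genes). Its log2 difference was 0.50 (SE 0.169, interval 0.14 to 0.85, edgeR adjusted p = 0.368), from 40 to 75 counts a library. In FPKM the days of WT overlapped, at 0.24 to 0.43 on day 0 and 0.27 to 0.43 on day 14. Group means were 0.2925 and 0.3283 FPKM. The Inhba difference on the log2(FPKM + 1) scale without a filter was 0.04, and at this level the added 1 shrinks any difference. The day difference of Inhba in WT shares the 4 WT libraries of day 0 with the genotype difference of that day.

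The other members with an unadjusted p under 0.05 in WT were Acvr1b, Ppm1a and Tgfbr3. Acvr1b was 83.7, 85.6, 83.0 and 84.0 CPM on day 0 and 81.7 to 104 CPM (median 96.5) on day 14, at a log2 difference of 0.18 (SE 0.0675, edgeR adjusted p = 0.422). Ppm1a differed by 0.14 (SE 0.0576, interval 0.02 to 0.26, adjusted p = 0.471). Tgfbr3 was 138, 143, 155 and 147 CPM on day 0 and 138 to 206 CPM (median 171) on day 14, at a difference of 0.22 (SE 0.101, adjusted p = 0.533). Each of them overlapped between the days.

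In KO the smallest p was that of Zfyve9 (chr4:108637466-108780798, minus strand), whose product presents Smad2 and Smad3 to the receptor. It was 45.1 and 47.3 CPM on day 0 and 53.1, 54.3, 55.4, 57.1 and 50.7 CPM on day 14, with every day 14 library above both day 0 libraries. The log2 difference was 0.23 (SE 0.0630, interval 0.10 to 0.36, unadjusted p = 0.00189, edgeR adjusted p = 0.263, DESeq2 adjusted p = 0.0533). In WT Zfyve9 was 48.0, 46.5, 51.2 and 51.8 CPM and then 49.1 to 54.0 CPM (median 51.4), a difference of 0.06. Tgfb1 was the other member apart between the days in KO, so 2 of 34 (5.88%) were higher, beside 5.6% of all genes, and 0 were lower, beside 6.2%. Ltbp3 was 184 and 181 CPM in KO on day 0 and 162, 188, 157, 151 and 147 CPM on day 14 (log2 difference -0.18, SE 0.0852, edgeR adjusted p = 0.551).

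**Figure D4:**
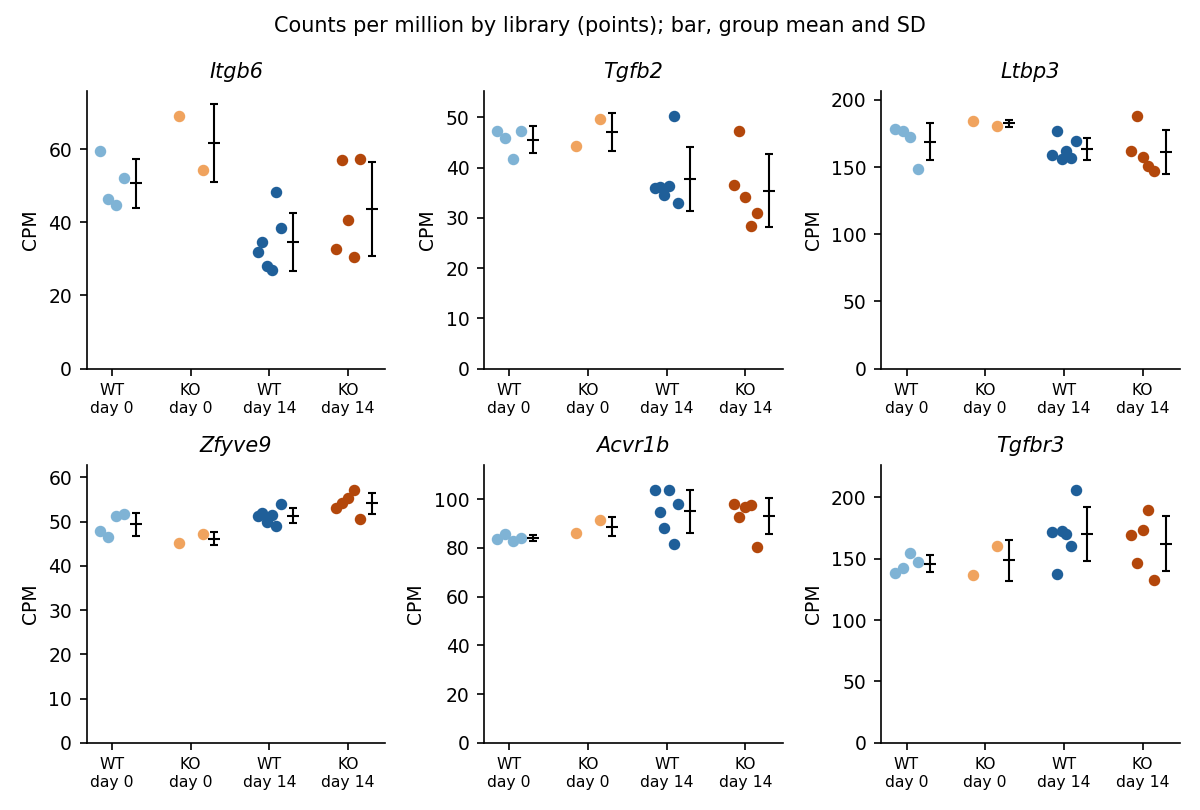
CPM of Itgb6, Tgfb2, Ltbp3, Zfyve9, Acvr1b and Tgfbr3 by library (points), with the group mean and SD (bars). Tgfb2 and Itgb6 lie lower on day 14 in most libraries of both genotypes, and Zfyve9 is higher in all 5 KO libraries of day 14 than in the 2 of day 0.

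Whether the genotype difference itself differed between the days was tested as an interaction. Again 0 of 34 members passed, beside 0% of all genes, with 2 members (5.88%) at an unadjusted p under 0.05 beside 4.55% of all genes. DESeq2 called 0 members, beside 0.046% of all genes (9 genes). Inhba had an interaction of -0.73 (SE 0.271, interval -1.3 to -0.16, edgeR adjusted p = 0.988), which was -0.47 without KO library 2 of day 0 and -0.95 without KO library 1. On the log2(FPKM + 1) scale without a filter the interaction of Inhba was -0.08, and the added 1 shrinks any difference at the FPKM of Inhba. Zfyve9 had 0.17 (SE 0.0789, interval 0.01 to 0.34, edgeR adjusted p = 0.988).

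The target genes showed a lower median on day 14 than the members did. In KO 22 of the 28 target genes were lower on day 14 and 6 higher, with a median log2 difference of -0.26 against 0.01 over all genes. In WT 17 were lower and 11 higher, with a median of -0.06. The share of all genes lower on day 14 was not counted. The KO comparison of the days shares its 2 KO libraries of day 0 with the genotype comparison of that day. The median of the target genes there was 0.19, so the 2 results are not independent. Fits with 1 library left out are not given for this list. None of the 28 passed the test in either genotype, beside 0% of all genes. Of the 28, 8 in KO (28.6%, beside 9.05% of all genes) and 3 in WT (10.7%, beside 9.06%) had an unadjusted p under 0.05. In KO 7 of the 8 were lower on day 14: the matrix genes Col5a1 (-0.60, SE 0.118, edgeR adjusted p = 0.158), Col4a1 (-0.46), Col1a1 (-0.47), Eln (-0.77, SE 0.199, adjusted p = 0.241), Loxl2 (-0.49) and Tnc (-0.90), and the cytokine gene Il11 (-1.18, SE 0.343, adjusted p = 0.297). The 1 that was higher was the cell cycle inhibitor gene Cdkn2b (0.32, SE 0.146, adjusted p = 0.524). The fibroblast list shares Col1a1, Col1a2 and Col3a1 with the target genes. Its sum was 3179 and 3363 CPM in KO on day 0 and 2215 to 3448 CPM on day 14, and the part of fibroblasts in these values was not tested. Of the 35 other pathway genes tested, 0 passed, beside 0% of all genes, and the median of the 35 was -0.02 in KO and 0.02 in WT. At an unadjusted p under 0.05 there were 3 in KO (8.57%, beside 9.05% of all genes) and 6 in WT (17.1%, beside 9.06%).

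The median within-group coefficient of variation was 9.82% for the 34 members, from 4.17% for Zfyve9 to 29.4% for Snai1. Over all genes tested the median was 13.0%. Those genes were not matched to the members in level, so the lower value is not read as a trait of the pathway. In some libraries many members were low together. The matching share over all genes was not counted, so these counts say nothing particular to the members. KO library 1 of day 0 was below KO library 2 for 25 of the 34, Hivep2, Skil and Itgav among them, so day 0 differences depend on which of the 2 is used: the median over members was 0.10 without library 1 and -0.07 without library 2. KO library 5 of day 14 was the lowest of its 5 for 18 of the 34, Ltbp2 and Ltbp4 among them. It was also the smallest library, with 20607811 counts, and its 4 erythroid genes summed to 31500 CPM, against 5725 to 13840 CPM in the others.

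**Figure D5:**
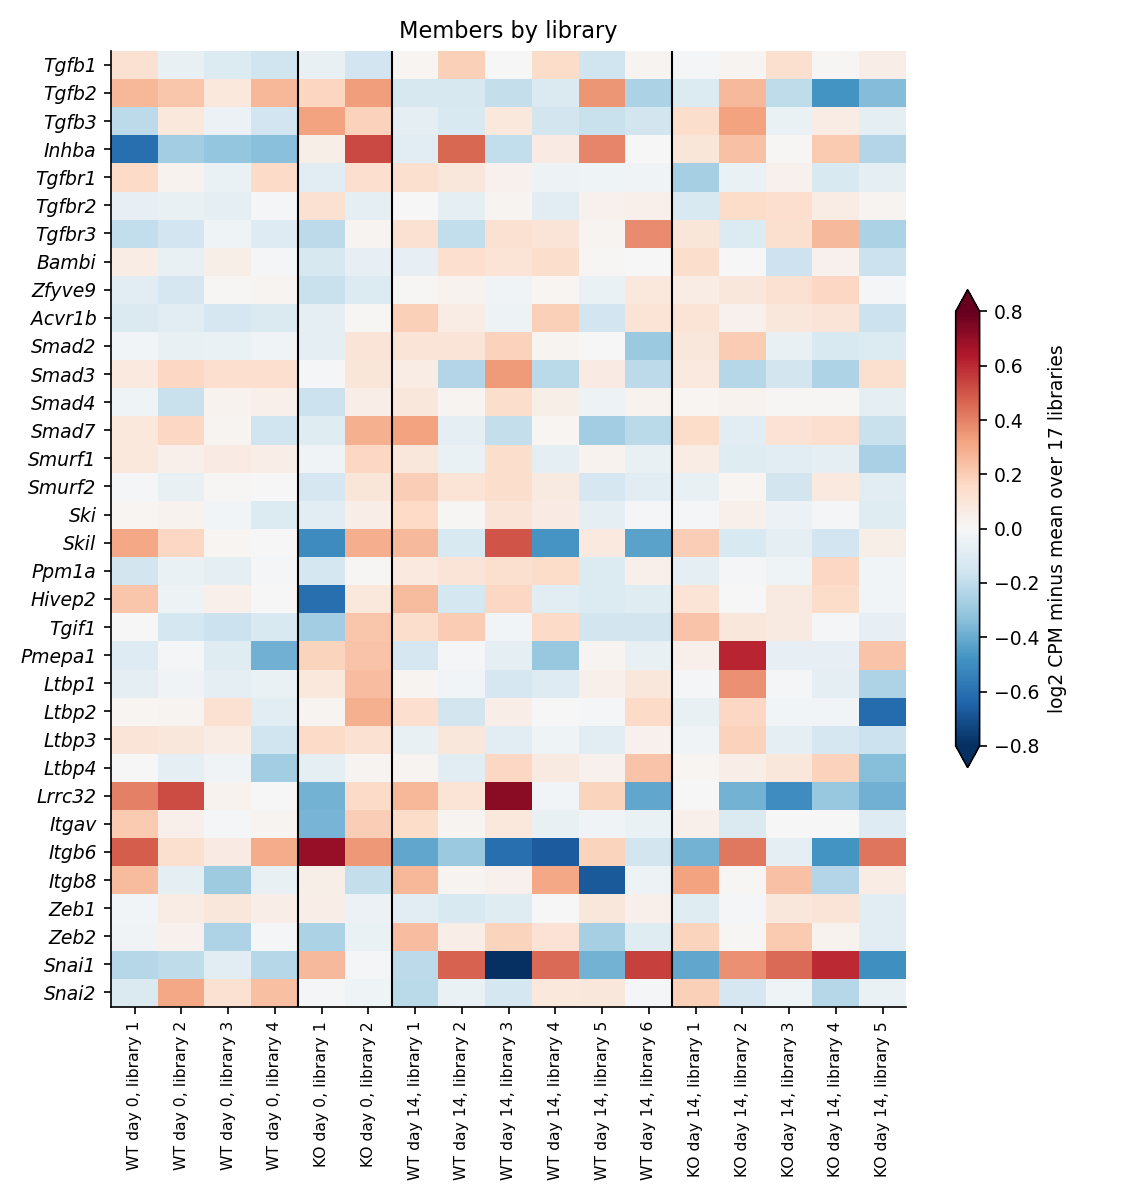
Log2 CPM of each member minus its mean over the 17 libraries (colour), with members down the side by role and libraries across by group. No group forms a block of its own, KO library 1 of day 0 is below library 2 in 25 members, and Snai1, Itgb6, Lrrc32 and Skil carry the strongest colours.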

How the data were processed

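Lung RNA of mice was sequenced in 17 libraries, and the deposited tables hold 1 column of expected counts per library and a joint FPKM table for 54146 genes. The authors aligned and counted with STAR 2.5.3 and RSEM 1.3.0 and used limma 3.38.3 on build mm10, per the submitters' processing notes, and the total RNA was prepared with Qiagen RNeasy and Illumina TruSeq v4, per the labels. The unit expected counts was read from the deposited values, which are not whole in 13.86 to 17.14% of genes. The FPKM values are the authors' own and were used for levels between genes and as an alternative scale. Counting by strand is not given in the sources used here, so reads of a gene and of an antisense partner cannot be told apart. Group sizes follow the sample labels, from which those of the series' own text differ. Libraries are numbered in accession order, which pairs nothing.

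Expected counts were rounded and filtered with filterByExpr (19557 genes), scaled with TMM factors (0.977 to 1.014), and fitted with edgeR 4.0.16 as 1 model of 4 group means (glmQLFit robust, glmQLFTest, common biological coefficient of variation 0.152). P-values are two-sided, adjusted by Benjamini-Hochberg within each comparison over the 19557 genes, and a gene passed under 0.05. SE is the log2 difference over the root of F, and 95% intervals cover the spread between libraries. CPM use the TMM-scaled library sizes. With 20607811 to 35743830 counts per library, only Inhba and Itgb8 had under 100 counts in a library. DESeq2 1.42.0, limma-voom (limma 3.58.1), other scaling, no filter, log2(FPKM + 1 or 0.1) with a group mean of at least 1 FPKM, fits of the compared groups alone, and leaving out each library were alternatives, in R 4.3.3. The code was tested on simulated data.

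All 34 members are accounted for. Those with an unadjusted p under 0.05 in a comparison (up to 8 each way), with Clic4, Ppm1a and Hivep2, are given by library, or by lowest, median and highest value for the 6 libraries of WT on day 14. The members and the lists of targets, pathway genes and cell markers were chosen with earlier results of these data known. Promoter sequences and gene positions are from RefSeq (GRCm38.p6) and GENCODE M21, on the assembly that mm10 names.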

Additional observations from a re-analysis of the deposited data

Results flagged for a closer look

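Of 102 groups of 4 to 6 libraries examined for the 34 members, 4 (3.92%) had a highest or lowest library whose gap to the nearest of the others exceeded Dixon's 95% critical value, and chance gives about 1 in 20. Tgfb2 was 50.3 CPM in WT library 5 of day 14, against 33.0 to 36.4 CPM in the other libraries of its group. Smad4 was 79.0 CPM in KO library 5 of day 14, against 83.9 to 85.0 CPM in the others. Ppm1a was 129.5 CPM in KO library 4 of day 14, against 109 to 114 CPM in the others. Snai1 was 10.6 CPM in WT library 3 of day 0, against 9.60 to 9.77 CPM in the others.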

How the results depend on the processing

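No paired analysis was possible because the labels give the groups no shared replicate numbers. The number of members called stayed at 0 in each comparison and alternative except DESeq2 for the mean of both days, with 1 (Tgfb3, log2 difference 0.26, adjusted p = 0.0342). Counts over all genes moved more. On day 0 (5 by edgeR) they were 26 with DESeq2, 3 with limma-voom, 17 with log2(FPKM + 1) without a filter, 13 with the 2 groups alone, and 2 to 7 with 1 library left out (3 without WT library 2, 2 without either KO library). On day 14 (21) DESeq2 called 109, and leaving out 1 library 15 to 27. For the mean of both days (20) DESeq2 called 156, both filtered FPKM scales 11, and leaving out 1 library 12 to 26 (13 without WT library 1 or 4 or KO library 1 of day 0, 12 without WT library 3 of day 0). For the days in WT (0) the counts were 3 with DESeq2's size factors, 5 by edgeR without a filter, 110 with DESeq2, 1 with limma-voom and 0 to 22 with 1 library left out (22 without WT library 5 and 1 without WT library 6 of day 14). For the days in KO (0) they were 97 with DESeq2, 4 on both filtered FPKM scales, 19 with log2(FPKM + 1) without a filter, 2 with the 2 groups alone and 0 to 12 with 1 library left out (12 without KO library 2, 2 without WT library 6, 1 without WT library 2 or 3, all of day 14). For the interaction (0) they were 9 with DESeq2, 4 with log2(FPKM + 1), 3 with log2(FPKM + 0.1), 7 with log2(FPKM + 1) without a filter and 0 to 1 with 1 library left out (1 without WT library 2 or 3 or KO library 4 of day 14). A lone KO library of day 0 is assumed to vary like the other groups. Among members given by library, directions turned for Ppm1a on day 0 (-0.02 on each FPKM scale, -0.07 to 0.08 with 1 library left out), for Hivep2 on day 0 (-0.67 to 0.03), and for both in the mean of the days (Ppm1a -0.06 to 0.01, Hivep2 -0.30 to 0.04). Over all 34 members, leaving out KO library 1 or 2 of day 0 turned 7 and 12 on day 0, 13 and 6 for the mean of both days, 8 and 9 for the days in KO and 6 and 11 for the interaction, and leaving out 1 library turned up to 7 on day 14 (without KO library 4) and up to 2 for the days in WT. On the filtered FPKM scale 6 of 32 members had the other sign on day 0 and 2 of 32 on day 14. The cause of these shifts was not tested. With 2 KO libraries on day 0 and 31 to 75 counts for Inhba, differences of the size seen there are not resolved.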
